A study of Mus musculus with 66 samples.

Results

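Matrix Gla protein, encoded by Mgp, and 7 small leucine-rich proteoglycans, encoded by Bgn (biglycan), Dcn (decorin), Lum (lumican), Fmod (fibromodulin), Ogn (osteoglycin), Prelp and Aspn (asporin), were followed across mRNA-Seq libraries of mouse C2C12 cells, a myoblast line that stops dividing and fuses into myotubes when serum is lowered. The 8 genes were taken by name from a table of 22489 genes, and all 8 were listed in it. Mgp was picked by the study on a principal component of the same libraries that separated differentiated lines, so its differences between lines are described here without a test. The list was also drawn up with values of these libraries in view, so its tests are not independent evidence.

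The series compared 9 C2C12 lines carrying a histone H3 variant with GFP at its N-terminus under a doxycycline-inducible (Tet-On) promoter (H3mm16, H3mm13, H3mm12, H3mm11, H3mm7, H3.3, H3t, H3.2 and H3.1), and cells without a GFP-tagged H3 gene (WT). Growing cells were kept in 20% fetal bovine serum and taken before confluence, and differentiated cells were taken after 48 h in 2% horse serum. H3.1, H3.2 and H3t are H3.1/H3.2-type proteins (3 lines), and the other lines carry H3.3 or a variant closest to it (H3.3-type, 6 lines). Each line and WT had 1 library in growth and 1 after differentiation, 20 libraries in all, and lines served as the units of every test. The methods call the lines stable clones, so the effect of a variant and that of a clone cannot be told apart, and p-values measure the spread between lines. Values are FPKM, fragment numbers scaled to the length of the exons and to the mapped fragments of the library, so that levels can be set side by side between genes. Read depth was not known, because the table gives no counts. The FPKM of all genes summed to 583613 to 894105 in the GFP-H3 libraries, with the highest sum in differentiated H3mm7 cells, and to 409319 and 465247 in the WT libraries. Gapdh, a glycolytic enzyme, was listed at 0.361 and 0.263 FPKM in WT and at 783 FPKM or more in every GFP-H3 library. In WT, 173 genes lay at least 8-fold below the lowest GFP-H3 library, and none of the 8 genes was among them. An exact 0 can be a failed estimate: 44 genes whose values above 0 had a median over 20 FPKM were listed at 0 in some library, none of the 8 genes among them.

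Small leucine-rich proteoglycans are secreted proteins whose curved stack of leucine-rich repeats binds collagen fibrils and growth factors, and most carry sugar chains. Decorin and biglycan carry chondroitin or dermatan sulfate and bind TGF-beta, while lumican and fibromodulin carry keratan sulfate and bind fibrillar collagen. Matrix Gla protein is unrelated in sequence. It is a small secreted protein that needs vitamin K for its gamma-carboxylation, inhibits calcification of soft tissue and binds BMP ligands. In muscle, these proteins belong to the extracellular matrix and are best known as products of connective tissue cells. Bulk RNA cannot tell fewer cells expressing a gene from less RNA per cell.

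Several of the genes are neighbours. In the NCBI37/mm9 build with GENCODE vM1 annotation, Aspn (chr13:49639812-49662926) and Ogn (chr13:49703440-49719869) lay on the plus strand of chromosome 13, 40.5 kb apart, in the order Ecm2, Aspn, Omd, Ogn. All of these lay inside Cenpp, a centromere protein gene on the opposite strand, with no exon shared. Dcn (chr10:96942245-96980777) and Lum (chr10:97028135-97035337) lay 47.4 kb apart on the plus strand of chromosome 10, followed by Kera and Epyc. Prelp (chr1:135806881-135817991, minus strand) and Fmod (chr1:135933831-135944854, plus strand) lay 116 kb apart on chromosome 1, and an exon of Prelp overlapped the antisense transcript Gm15851. Mgp (chr6:136820957-136824326, minus strand) and Bgn (chrX:70728941-70741272, plus strand) stood apart from the others. The strand setting of the libraries was not given in the sources used here, so reads of Prelp and Gm15851 could not be separated.

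The 250 bases before the start of Ogn, Aspn and Fmod are shown because Ogn and Aspn, neighbours on chromosome 13, were higher after differentiation and Fmod was lower in every line. The windows are chr13:49607765-49608014, chr13:49544193-49544442 and chr1:134037004-134037253 of RefSeq's GRCm38.p6, all on the plus strand. They are written 5′ to 3′, with E-boxes (CANNTG, which reads the same on both strands) in capitals. The E-box is the core motif of basic helix-loop-helix proteins, the MyoD family of muscle regulators among them.
Ogn: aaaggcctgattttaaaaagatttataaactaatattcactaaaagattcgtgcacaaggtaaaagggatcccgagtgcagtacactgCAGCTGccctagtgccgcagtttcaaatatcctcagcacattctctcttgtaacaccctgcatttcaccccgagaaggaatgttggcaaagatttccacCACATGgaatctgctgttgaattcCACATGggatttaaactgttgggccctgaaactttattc
Aspn: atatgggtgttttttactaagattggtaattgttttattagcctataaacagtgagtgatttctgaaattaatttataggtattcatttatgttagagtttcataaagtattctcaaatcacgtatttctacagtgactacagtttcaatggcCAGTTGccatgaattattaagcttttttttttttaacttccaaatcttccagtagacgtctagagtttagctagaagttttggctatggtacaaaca
Fmod: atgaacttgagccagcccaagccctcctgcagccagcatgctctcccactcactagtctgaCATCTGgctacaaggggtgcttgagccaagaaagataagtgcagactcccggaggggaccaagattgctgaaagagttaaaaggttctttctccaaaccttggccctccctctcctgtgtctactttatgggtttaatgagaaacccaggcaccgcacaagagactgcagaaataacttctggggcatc
Ogn held 3 E-boxes, 1 of them of the form CAGCTG, while Aspn and Fmod held 1 each and neither was CAGCTG. Of the 5 members with a sequence in the RefSeq promoter table, Bgn held 1 E-box, a CAGCTG, and Prelp held 0. CANNTG was present in 66.2% of 32851 promoter windows of this length and CAGCTG in 13%. These matches describe the letters and not bound sites.

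Dcn, Ogn, Mgp, Aspn and Prelp rose with differentiation, Bgn did not pass the test, Fmod was low and had a lower level in each line, and Lum was close to 0 throughout. The test was limma on log2(FPKM + 1) over the 10931 genes with a mean of at least 1 FPKM in the 18 GFP-H3 libraries, with 9 lines a state. A call needed both an adjusted p (Benjamini-Hochberg) under 0.05 and a change of 1 or more on the log2(FPKM + 1) scale, which understates changes of low genes. Of the 8 genes, 6 passed the filter on low values, and 5 were called higher and 0 lower (5 and 0 also at an unadjusted p below 0.05). Over all genes tested, 8.8% were called higher and 8.57% lower (17.4% in all), and 7122 of the 10931 had an unadjusted p below 0.05. Aspn and Prelp had growth medians under 1 FPKM and passed the filter through their differentiated libraries, so the count is not evidence for the list. For the same reason their own p-values are not independent support. In a fit without the filter their adjusted p was 0.0061 and 6.5e-05 (limma). The median difference of the 6 was 2.30, against 0.04 over all genes tested. That median is also a description and not evidence for the list, because the filter kept Aspn and Prelp and left out Fmod and Lum.

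**Figure D1:**
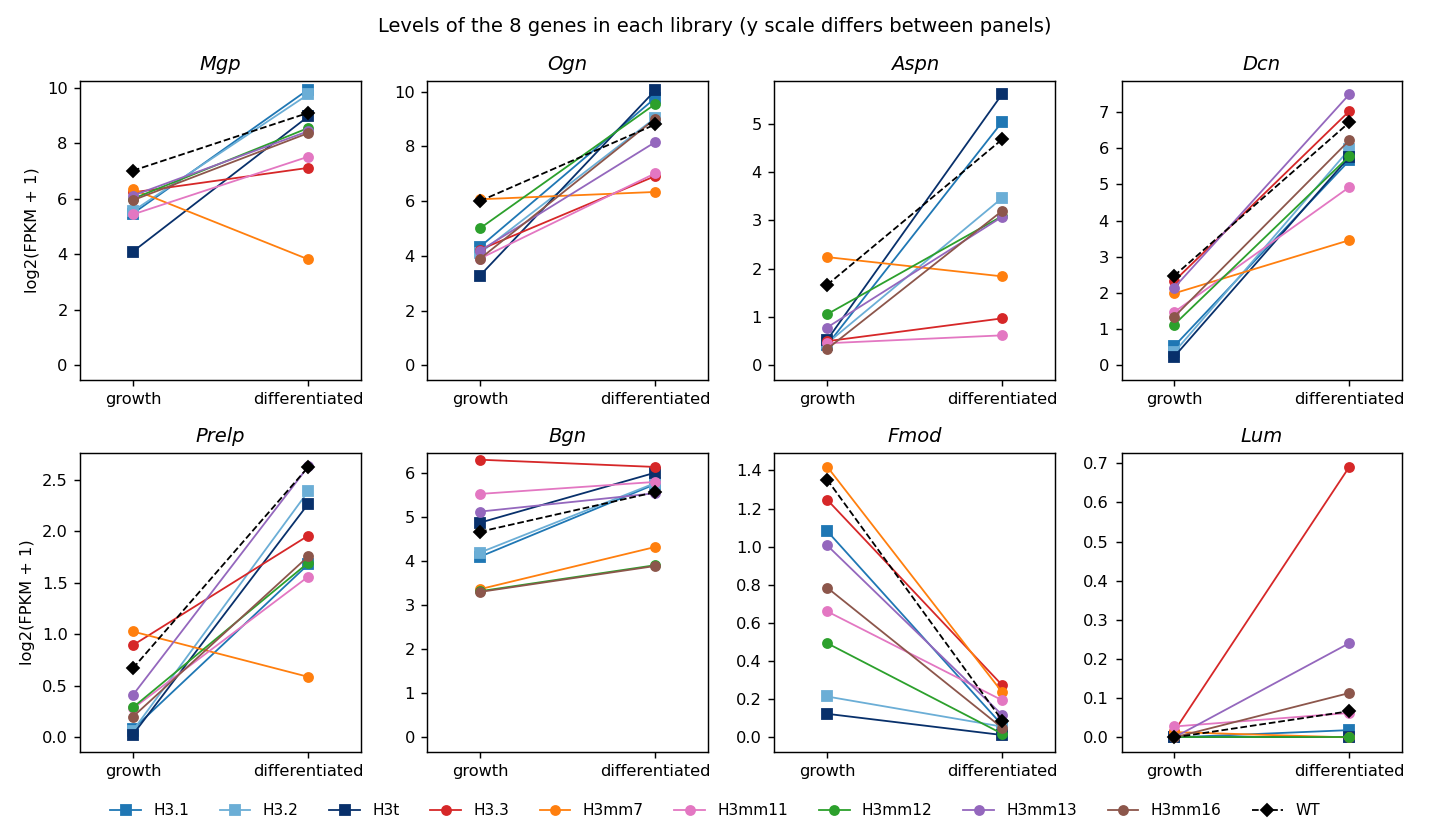
Level of each gene, as log2(FPKM + 1), in growing and differentiated cells, with a line joining the 2 libraries of a cell line. Squares are H3.1/H3.2-type lines, circles H3.3-type lines and black diamonds WT. Dcn and Ogn were higher after differentiation in 9 of 9 lines, Fmod was lower in 9 of 9, and Mgp was lower only in H3mm7.

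Ogn, which codes for a keratan sulfate proteoglycan also called mimecan, was among the most abundant of the 8 after differentiation. In growing cells it stood at 8.72 FPKM in H3t, 13.9 in H3mm16, 14.0 in H3mm11, 16.2 in H3.2, 17.2 in H3mm13, 17.7 in H3.3, 19.1 in H3.1, 31.1 in H3mm12 and 66.1 in H3mm7. In differentiated cells it stood at 79.8 FPKM in H3mm7, 120 in H3.3, 129 in H3mm11, 285 in H3mm13, 516 in H3mm16, 527 in H3.2, 749 in H3mm12, 872 in H3.1 and 1060 in H3t. The groups did not overlap, and H3mm7 held the highest growth level and the lowest differentiated level. The difference was 4.10 (log2, SE 0.48, limma, adjusted p = 4.7e-07), higher in 9 of 9 lines. In WT it went from 63.2 to 446 FPKM.

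Dcn, whose product decorin binds collagen and TGF-beta, had the largest difference of the 8. In growing cells the levels were 0.180 FPKM in H3t, 0.282 in H3.2, 0.442 in H3.1, 1.18 in H3mm12, 1.53 in H3mm16, 1.77 in H3mm11, 2.97 in H3mm7, 3.42 in H3mm13 and 4.02 in H3.3. In differentiated cells they were 10.0 FPKM in H3mm7, 29.4 in H3mm11, 49.7 in H3.1, 53.4 in H3t, 54.1 in H3mm12, 61.9 in H3.2, 73.6 in H3mm16, 129 in H3.3 and 179 in H3mm13. No differentiated library fell within the growth range, and H3mm7 again had the lowest differentiated level. The difference was 4.53 (log2, SE 0.43, limma, adjusted p = 2.1e-08), and the median rose 35.3-fold. WT went from 4.56 to 104 FPKM. Dcn and Ogn were the members whose groups did not overlap in the higher direction, as was the case for 11.4% of all genes tested.

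Mgp had the highest median of the 8 in growing cells, though Bgn exceeded it in H3.3, H3mm11 and H3t. It stood at 16.2 FPKM in H3t, 42.5 in H3mm11, 43.4 in H3.1, 46.2 in H3.2, 60.9 in H3mm16, 63.3 in H3mm12, 68.5 in H3mm13, 74.3 in H3.3 and 80.4 in H3mm7. After differentiation it stood at 13.1 FPKM in H3mm7, 138 in H3.3, 183 in H3mm11, 331 in H3mm16, 347 in H3mm13, 376 in H3mm12, 502 in H3t, 871 in H3.2 and 984 in H3.1. The level was higher than in growth in 8 of 9 lines, and in H3mm7 it was lower than in any growth library. The difference over the 9 lines was 2.36 (log2, SE 0.59, limma, adjusted p = 0.0019), and 2.98 without H3mm7. In WT, Mgp went from 129 FPKM, above every growing GFP-H3 line, to 549 FPKM.

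Aspn, which codes for asporin, a relative of decorin without a glycosaminoglycan chain that binds TGF-beta, was low in growing cells. It stood at 0.264 FPKM in H3mm16, 0.338 in H3.1, 0.371 in H3.2, 0.373 in H3mm11, 0.414 in H3.3, 0.438 in H3t, 0.722 in H3mm13, 1.08 in H3mm12 and 3.73 in H3mm7. After differentiation the values were 0.539 FPKM in H3mm11, 0.963 in H3.3, 2.59 in H3mm7, 7.45 in H3mm13, 7.53 in H3mm12, 8.21 in H3mm16, 10.1 in H3.2, 32.1 in H3.1 and 48.3 in H3t. The lines thus ranged over 89.7-fold after differentiation, and 6 of 9 differentiated libraries lay above the highest growth library. The difference was 2.24 (log2, SE 0.54, limma, adjusted p = 0.0013), higher in 8 of 9 lines and lower in H3mm7. WT went from 2.17 to 24.7 FPKM.

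Prelp, which codes for a proteoglycan that joins basement membrane to collagen, was the lowest of the called genes. In growing cells it ranged from 0.0189 FPKM in H3t to 1.04 in H3mm7, with a median of 0.215. After differentiation it ranged from 0.503 FPKM in H3mm7 to 5.18 in H3mm13, with a median of 2.38. It was higher in 8 of 9 lines, and H3mm7 was again the exception. The difference was 1.47 (log2, SE 0.22, limma, adjusted p = 8.9e-06), and WT went from 0.592 to 5.16 FPKM.

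Bgn, whose product biglycan is the closest relative of decorin, was expressed in every library and did not pass the test. It ranged from 8.84 FPKM in H3mm16 to 77.5 in H3.3 in growing cells, with a median of 17.3. After differentiation it ranged from 13.8 FPKM in H3mm16 to 69.1 in H3.3, with a median of 52.5. The order of the lines was much the same in both states: H3mm7, H3mm12 and H3mm16 held the 3 lowest levels and H3.3 the highest. The level was higher after differentiation in 8 of 9 lines, and the difference was 0.78 (log2, SE 0.43, limma, adjusted p = 0.12), which was not called. That fit did not pair the libraries of a line. With the line as replicate block the SE was 0.18 (limma, adjusted p = 0.0024), and the difference was still under the size for a call. WT went from 24.3 to 46.2 FPKM.

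Fmod and Lum were below the filter. Fmod, which codes for a keratan sulfate proteoglycan of tendon and cartilage, was at 0.0896 to 1.68 FPKM in growing cells and at 0.00868 to 0.208 FPKM after differentiation. The level was lower in 9 of 9 lines and the median was 16.1-fold lower, though the groups overlapped. In a fit without the filter the difference was -0.67 (log2, SE 0.15, limma, adjusted p = 0.0020), short of the size needed for a call. WT went from 1.55 to 0.0629 FPKM. Lum, which codes for a corneal and dermal keratan sulfate proteoglycan, was listed at 0 in 6 of 9 growing and 4 of 9 differentiated lines and was highest in differentiated H3.3 cells, at 0.615 FPKM.

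**Figure D2:**
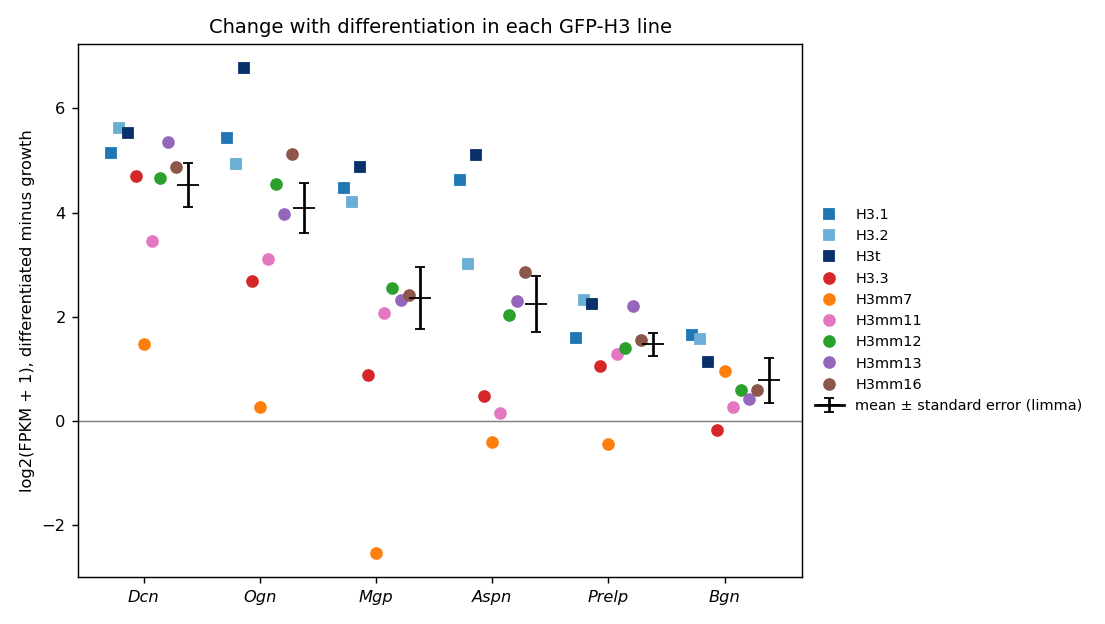
Change of log2(FPKM + 1) with differentiation in each line for the 6 genes that passed the filter. Squares are H3.1/H3.2-type lines and circles H3.3-type lines, and the black bar is the mean over 9 lines ± standard error. That error comes from the limma fit that does not pair the 2 libraries of a line, so it is not the error of the changes shown. H3mm7 had the smallest change for every gene but Bgn, and was below 0 for Mgp, Aspn and Prelp.

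By level, the genes fell in a different order in each state. In growing cells the medians were 60.9 FPKM for Mgp, 17.3 for Bgn and 17.2 for Ogn, with the others at or below 1.53. After differentiation they were 516 FPKM for Ogn, 347 for Mgp, 54.1 for Dcn and 52.5 for Bgn, with Aspn at 7.53 and the rest lower. The ranges of Ogn and Mgp overlapped in differentiated cells, as did those of Dcn and Bgn, so the order within either pair is not set. The 8 genes summed to a median of 104 FPKM in growth (range 53.8 to 176) and 944 FPKM after differentiation (125 to 1992). Mgp and Ogn together made up a median of 77.5% of that sum in growth and 89.6% after differentiation. In growth the most abundant of the 8 was Mgp in 6 lines and Bgn in 3. After differentiation it was Mgp in 5 lines and Ogn in 4. The sum was lower after differentiation in H3mm7, at 165 and 125 FPKM, and higher in the other 8 lines.

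The lines spread widely for these genes. After differentiation the SD of log2(FPKM + 1) over the 9 lines was 1.83 for Mgp, 1.68 for Aspn, 1.38 for Ogn and 1.16 for Dcn, against a median of 0.31 over all genes tested. A larger SD was found for 0.302% of tested genes in the case of Mgp, 0.403% for Aspn, 0.768% for Ogn and 1.66% for Dcn. In growth the widest was Bgn, with an SD of 1.07 that 0.704% of genes exceeded, against a median of 0.21. Mgp was picked on a component of these libraries, and the list was drawn up with their values in view. These ranks are therefore descriptions and not tests. With 1 library per line, differences between single lines have no error of their own.

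H3mm7 stood out. In growth it had the highest level of Mgp, Ogn, Aspn, Prelp and Fmod, and after differentiation the lowest level of Mgp, Ogn, Dcn and Prelp. Its changes were -2.52 for Mgp, -0.40 for Aspn, -0.44 for Prelp, 0.27 for Ogn and 1.47 for Dcn on the log2(FPKM + 1) scale. In the other 8 lines the same changes were at least 0.88 for Mgp, 0.16 for Aspn, 1.06 for Prelp, 2.69 for Ogn and 3.46 for Dcn. The 8 myogenic markers summed to 755 FPKM in growing H3mm7 cells, the highest sum, and to 1863 FPKM after differentiation, the second lowest. Myod1, a master regulator of muscle fate, was at 110 FPKM in growth, the highest level, and at 26.7 FPKM after differentiation, the second lowest. Myog, a muscle transcription factor, was at 496 FPKM in differentiated H3mm7 cells, inside the range of the 9 lines (329 to 1151) and above the 23.1 FPKM that no growing line exceeded. Actc1, cardiac actin, was at 293 FPKM, the second lowest in a range of 257 to 4205, and Myh3, embryonic myosin, at 54.9 FPKM, was the lowest of the 9. The other markers were not low in differentiated H3mm7 cells. Myf5 went opposite to Myod1, at 26.4 FPKM in growth and 95.9 FPKM after differentiation, the highest of the 9. Cdh15, at 188 FPKM, was the median of the lines. Ckm, at 144 FPKM (range 94.9 to 607), and Des, at 565 FPKM (range 378 to 1273), lay inside the range. The part of muscle differentiation in the H3mm7 values was not tested. H3.3 and H3mm11 were next lowest to H3mm7 for Mgp and Ogn after differentiation, whereas for Dcn H3.3 was the second highest of the 9 lines. The study also measured Mgp by RT-PCR amplicon sequencing with biological replicates. It reported no difference between differentiated H3.3, H3mm7 and H3mm11 lines and the others, except lower Mgp in H3mm7.

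The lines were next compared by the type of H3 they carried. After differentiation, Aspn was lower in H3.3-type lines, at 0.539 to 8.21 FPKM in 6 lines against 10.1 to 48.3 in 3 lines, with no overlap. The difference was -2.58 (log2, SE 0.58, limma over 4 groups, adjusted p = 0.032), and calls toward lower levels in H3.3-type lines made up 0.54% of genes tested. The call was lost in 4 of the 9 fits that left out a line, with adjusted p = 0.19 without H3t, 0.13 without H3.1, 0.070 without H3mm11 and 0.066 without H3.3, and also without the filter (adjusted p = 0.086) and with both smaller pseudocounts. Ogn showed a difference of -1.79 (SE 0.61, adjusted p = 0.11), with H3mm12 inside the range of the other type, and without H3mm12 it was called, at -2.13 (adjusted p = 0.049). Mgp, given as a description, was at 13.1 to 376 FPKM in H3.3-type and 502 to 984 FPKM in H3.1/H3.2-type lines, a difference of -2.26. Mgp and Aspn were the members without overlap in that direction, as were 2.95% of genes tested. The summed fibroblast markers moved the same way across these differentiated libraries. The 6 markers summed to 303 to 854 FPKM in differentiated H3.3-type and 1106 to 2051 FPKM in differentiated H3.1/H3.2-type lines, without overlap, and H3mm11, H3.3 and H3mm7 held the 3 lowest sums. Ly6a was at 185 to 527 against 766 to 1480 FPKM and Col1a1 at 0.220 to 4.29 against 8.20 to 51.0 FPKM, both without overlap. Col3a1 overlapped, at 91.9 to 324 against 288 to 527 FPKM, and the same 3 lines were its lowest. Pdgfra, at 0.0823 to 0.940 against 0.505 to 0.938 FPKM, overlapped too, Thy1 was near 0 and Tcf21 was listed at 0. In growth the direction was not the same. The sums overlapped, at 592 to 1068 FPKM in H3.3-type and 338 to 598 FPKM in H3.1/H3.2-type lines. Growing Ly6a was higher in H3.3-type lines without overlap, at 399 to 867 against 200 to 349 FPKM. Growing Col1a1 overlapped, at 1.95 to 12.2 against 6.39 to 104 FPKM. The part of these markers in the differences between lines was not tested.

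The other genes did not follow that pattern. Dcn ranged from 10.0 to 179 FPKM in differentiated H3.3-type lines, on both sides of the 49.7 to 61.9 FPKM of the other type, and the difference was 0.02 (SE 0.59, adjusted p = 0.99). Bgn differed by -0.91 (SE 0.64, adjusted p = 0.45) and Prelp by -0.41 (SE 0.31, adjusted p = 0.48), with overlap in both. In growth none of the members was called, and 0.21% of genes tested were. Dcn was at 1.18 to 4.02 FPKM in growing H3.3-type and 0.180 to 0.442 FPKM in growing H3.1/H3.2-type lines, a difference of 1.36 (SE 0.59, adjusted p = 0.47). Prelp did not overlap either, at 0.149 to 1.04 against 0.0189 to 0.0565 FPKM, a difference of 0.46 (SE 0.31, adjusted p = 0.67). Growth levels did not overlap, with H3.3-type higher, for 5.95% of genes tested. The 8 myogenic markers did not overlap in growth either, with sums of 378 to 755 FPKM in H3.3-type and 269 to 351 FPKM in H3.1/H3.2-type lines, and their part was not tested.

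**Figure D3:**
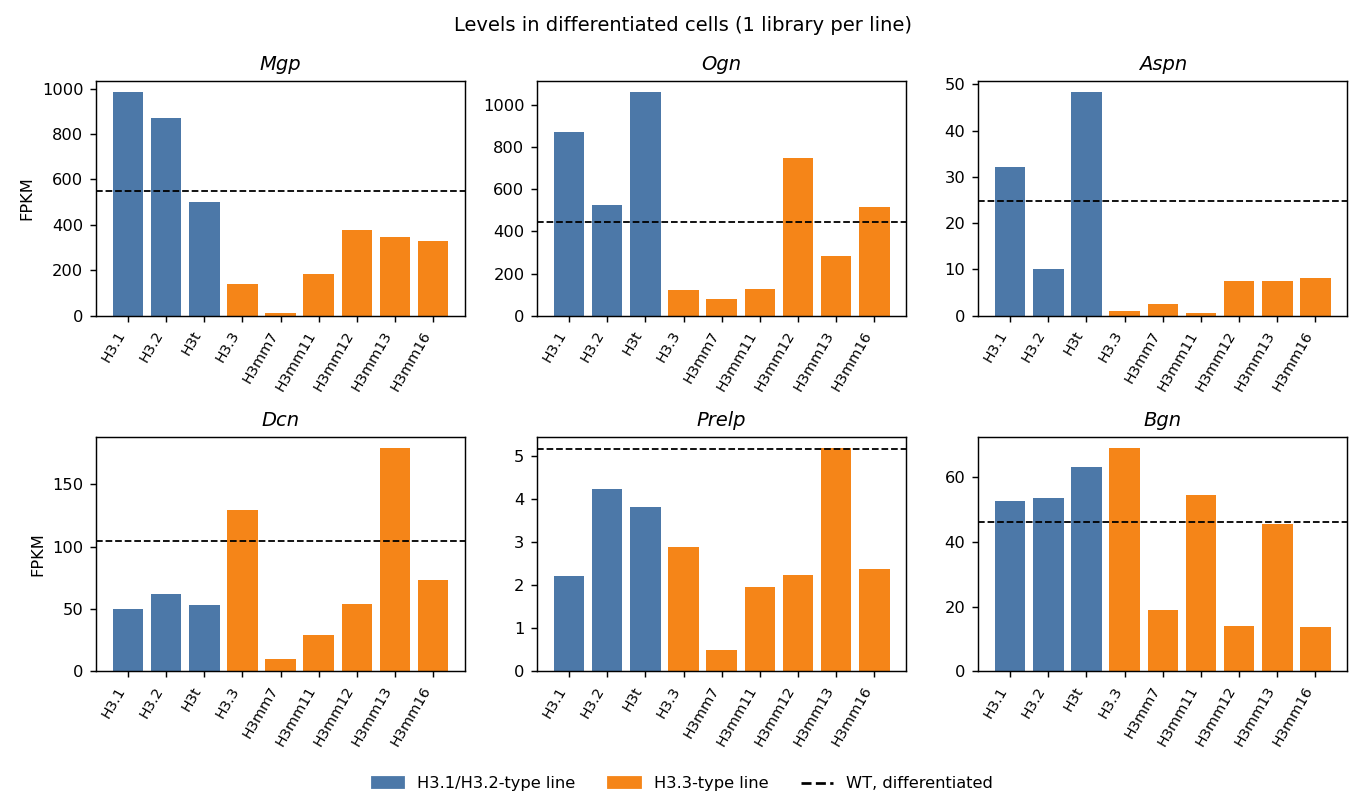
FPKM in differentiated cells, 1 bar per line, with H3.1/H3.2-type lines in blue, H3.3-type lines in orange and WT as a dashed line. Mgp and Aspn were higher in the 3 blue lines than in all 6 orange ones, while Dcn was highest in H3mm13 and H3.3.

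Whether the change with differentiation itself differed by type was tested as an interaction, and 0% of genes were called (999 at an unadjusted p below 0.05, and 5 called after quantile normalization). The differentiated level of Ogn minus its growth level was 4.94 to 6.77 in H3.1/H3.2-type and 0.27 to 5.12 in H3.3-type lines on the log2(FPKM + 1) scale, a difference of -2.43 (SE 0.87, adjusted p = 0.46). For Aspn the changes were 3.01 to 5.10 and -0.40 to 2.86, a difference of -3.01 (SE 0.82, adjusted p = 0.30). For Mgp, as a description, they were 4.21 to 4.87 and -2.52 to 2.55.

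With differentiation, not all neighbouring genes moved the same way. On chromosome 13, Omd, which codes for osteomodulin and lies between Aspn and Ogn, had a median of 1.82 FPKM in growth and 1.22 after differentiation, and the difference was -0.55 (log2, SE 0.33, adjusted p = 0.16). Ecm2, before Aspn, was below the filter, at medians of 0.215 and 0.836 FPKM, higher in 8 of 9 lines and lower in H3mm7, as Aspn was. By H3 type, differentiated Omd was at 0.325 to 1.68 FPKM in H3.3-type and 2.48 to 3.89 FPKM in H3.1/H3.2-type lines. These did not overlap, as for 2.95% of genes tested, and the difference was -1.17 (SE 0.43, limma, adjusted p = 0.13). Ecm2 differed by -0.63 with overlap, so both genes lay in the direction of Aspn and Ogn. Cenpp, whose introns hold the 4 genes, fell from a median of 14.4 to 2.81 FPKM, a difference of -2.02 (SE 0.20, adjusted p = 4.5e-08), lower in 9 of 9 lines. On chromosome 10, Kera (keratocan) and Epyc (epiphycan) stayed at or below 0.0272 FPKM in all 18 libraries, as Lum nearly did, beside a Dcn median of 54.1 FPKM. On chromosome 1, Optc (opticin) was at or below 0.292 FPKM in all 18 libraries, while Prelp was higher and Fmod lower after differentiation.

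**Figure D4:**
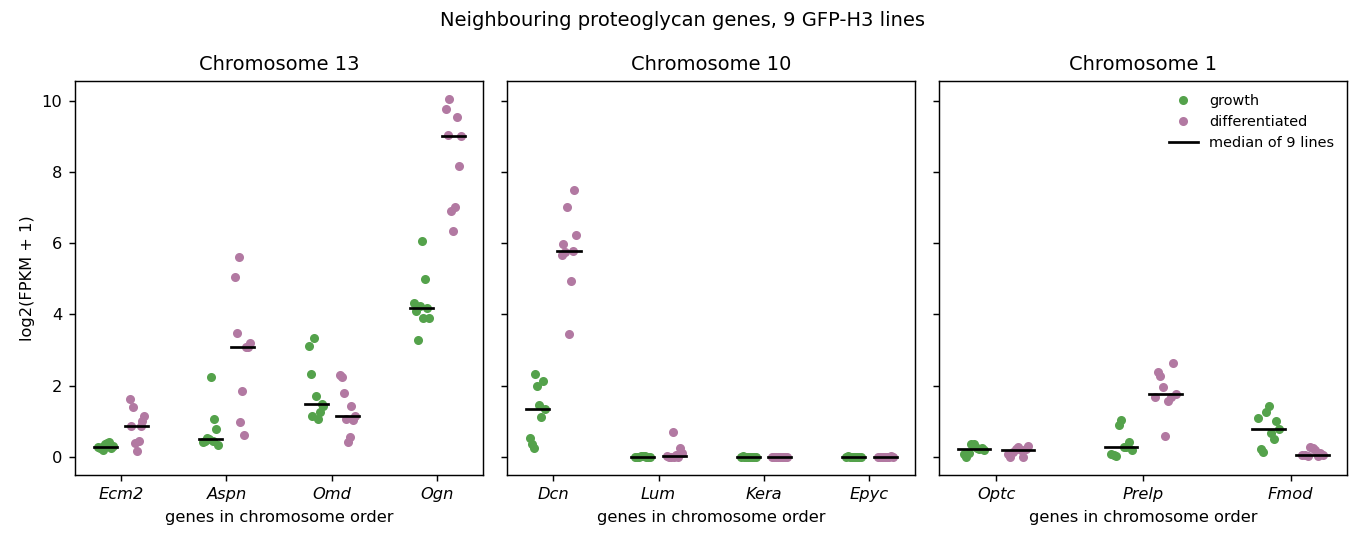
Level as log2(FPKM + 1) of proteoglycan genes in chromosome order in 3 regions, with a point per line and the median of the 9 lines as a bar. Within each region a gene called higher after differentiation (Ogn, Aspn, Dcn, Prelp) lies beside a gene that was near 0, uncalled or lower. Ecm2, below the filter and not tested, was higher in 8 of 9 lines.

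Of the 11 other genes of the family examined (Ecm2, Kera, Omd, Epyc, Optc, Chad, Nyx, Tsku, Podn, Podnl1 and Chadl), 4 passed the filter and limma called none in either direction (0 higher and 2 lower at an unadjusted p below 0.05). With 8.8% of all genes tested called higher and 8.57% lower, 0 calls among 4 genes is not a result about them. Tsku, a secreted regulator of several signalling pathways, came closest, with a median of 12.7 FPKM in growth and 4.88 after differentiation and a difference of -0.98 (SE 0.21, limma, adjusted p = 4.0e-04). It passed the size for a call, at -1.01 to -1.12, in 6 of the alternatives, among them both smaller pseudocounts. The median difference of the 4 was -0.60.

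The machinery around these proteins was examined next, beside 8.8% of all genes tested that were called higher and 8.57% lower. Of the vitamin K cycle and other Gla protein genes, 8 were tested, 1 was called higher and 0 lower (3 and 1 at an unadjusted p below 0.05), with a median difference of 0.01. Bglap2, an osteocalcin gene, rose from a median of 0.288 to 9.04 FPKM, a difference of 2.24 (SE 0.41, adjusted p = 9.8e-05). Bglap2 also passed the filter through its differentiated libraries, so its p-value is not independent support. It shares near-identical sequence with Bglap, so how reads were divided between them is uncertain. Ggcx, the gamma-carboxylase that modifies Mgp protein, had medians of 6.84 and 11.7 FPKM and was higher in 9 of 9 lines, and the difference of 0.56 (SE 0.09, adjusted p = 1.7e-05) was under the size for a call. Vkorc1, which recycles vitamin K, had medians of 20.7 and 35.3 FPKM and a difference of 0.82 (SE 0.12, adjusted p = 5.3e-06), also uncalled. Tsku, Ggcx, Vkorc1, Col6a1, Col6a2 and the neighbours Omd, Ecm2 and Cenpp were named outside the rule for named genes.

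Among ligands and receptors of BMP and TGF-beta, which Mgp protein, decorin and asporin bind, 9 were tested, 1 was called higher and 0 lower (5 and 3 at an unadjusted p below 0.05). Tgfbr2, the type II TGF-beta receptor, rose from a median of 19.5 to 48.4 FPKM, a difference of 1.13 (SE 0.18, adjusted p = 2.3e-05). Bmp2 was listed at 0 in every library. Limma called none of the 7 tested receptors that proteoglycans bind at the cell surface (3 higher and 2 lower at an unadjusted p below 0.05). The median differences of these lists were 0.26 and 0.29. Calls over all genes tested were 8.8% higher and 8.57% lower, so the called counts are not a result about either list.

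Sugar chain enzymes were called in both directions. Of 19 tested genes for the linker and for chondroitin and dermatan sulfate, 1 was called higher and 1 lower. At an unadjusted p below 0.05 these were 4 and 9, with a median difference of -0.28. The called counts are close to the shares over all genes tested (8.8% higher and 8.57% lower). Chst15, a chondroitin sulfate 6-O-sulfotransferase, rose from a median of 0.848 to 4.76 FPKM (difference 1.37, SE 0.26, adjusted p = 1.2e-04). Chst15 also passed the filter through its differentiated libraries, so its p-value is not independent support. Chst12, a 4-O-sulfotransferase, fell from 18.5 to 7.81 FPKM (difference -1.13, SE 0.26, adjusted p = 8.0e-04). Of 5 tested genes for keratan sulfate, with a median difference of 0.01, B4galt4, a galactosyltransferase, rose from 2.26 to 8.19 FPKM (difference 1.47, SE 0.21, adjusted p = 5.6e-06). The keratan sulfate sulfotransferases Chst1 and Chst2 fell, from 17.5 to 2.34 FPKM and from 6.37 to 0.907 FPKM. Their differences were -2.29 (SE 0.19, adjusted p = 2.4e-09) and -1.96 (SE 0.19, adjusted p = 2.2e-08). Chst2, with a differentiated median under 1 FPKM, passed the filter through its growth libraries, so its p-value is not independent support.

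Of 6 tested proteases that cleave proteoglycans, Adamts1, Adamts4, Adamts5 and Mmp2 were called higher and 0 lower (4 and 1 at an unadjusted p below 0.05). The median difference of the 6 was 1.37. The list was chosen with earlier results of these data known, so the count is not evidence for it. Over all genes tested, 8.8% were called higher and 8.57% lower. Adamts1, a metalloprotease that cleaves aggrecan and versican, rose from a median of 15.5 to 81.0 FPKM (difference 2.37, SE 0.20, adjusted p = 5.4e-09). Adamts5, an aggrecanase, rose from 7.01 to 28.5 FPKM (difference 2.06, SE 0.25, adjusted p = 7.5e-07). Of 15 tested genes for collagens and their cross-linking, 1 was called higher and 2 lower (1 and 6 at an unadjusted p below 0.05). Their median difference was -0.27. The chains of collagen VI differed in direction. Col6a3 fell from 62.7 to 10.98 FPKM in 9 of 9 lines (difference -2.39, SE 0.28, adjusted p = 3.7e-07). Col6a1 rose from a median of 2.49 to 11.2 FPKM, higher in 8 of 9 lines (difference 1.62, SE 0.62, limma, adjusted p = 0.030). Col6a2 was also higher in 8 of 9 lines and was not called (difference 0.90, SE 0.62, limma, adjusted p = 0.22).

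Cell type markers were read beside these results, and beside 8.8% of all genes tested that were called higher and 8.57% lower. Of 8 myogenic markers, 6 were called higher, with Actc1 up by 8.38 and Ckm, muscle creatine kinase, up by 7.40 on the log2(FPKM + 1) scale. Ckm and Myh3 had growth medians under 1 FPKM and passed the filter through their differentiated libraries, so their calls are not independent support. The sum of the 8 markers lay at 269 to 755 FPKM in growth and 1333 to 8288 FPKM after differentiation. Of 6 fibroblast markers, 3 were tested and none was called (0 at an unadjusted p below 0.05). Their sum was 338 to 1068 FPKM in growth and 303 to 2051 FPKM after differentiation, mostly Ly6a and Col3a1. Tcf21 was listed at 0 in every GFP-H3 library, and Thy1 was at or below 0.0114 and Pdgfra at or below 0.940 FPKM. Of 6 osteoblast markers, Bglap2 was called higher and Runx2 lower, their sum was 8.79 to 14.9 and then 4.37 to 22.1 FPKM, and Ibsp and Sp7 were at or below 0.272 FPKM.

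Of 6 chondrocyte markers 1 was tested and none was called (1 higher at an unadjusted p below 0.05), with sums of 8.17 to 10.2 and 7.22 to 20.5 FPKM that were nearly all Sox9, and Acan at or near 0 and Col9a1 listed at 0. Of 4 smooth muscle markers Acta2 was called higher (not without H3mm16 or after quantile normalization) and Cnn1 lower, with sums of 534 to 1549 and 737 to 3246 FPKM, and Myh11 was at or below 0.379 FPKM. Of 4 endothelial markers Cdh5 was called lower (median 2.68 to 0.405 FPKM), with sums of 1.06 to 7.68 and 0.235 to 2.06 FPKM. Cdh5 passed the filter through its growth libraries, so its call is not independent support. Adipocyte markers summed to 15.3 to 34.9 and 9.67 to 18.1 FPKM, and leukocyte markers to 0.875 to 2.26 and 0.287 to 3.92 FPKM, with none of 2 and 1 tested called (2 lower and 0 at an unadjusted p below 0.05). Adipoq was at or below 0.110 FPKM and Ptprc at or below 0.0662. The part of any other cell type in the rise of the 5 genes was not tested.

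The genes most alike in pattern were sought by Pearson's r of log2(FPKM + 1) over the 18 GFP-H3 libraries, as a description. The libraries share lines and states, so r mixes the rise with differentiation and the spread of lines. For Mgp these were Tex26 (r = 0.94) and Notch3 (r = 0.93), with r of 0.94 and 0.90 over the 9 differentiated libraries alone. For Ogn they were Pcdhb22 (r = 0.98) and Pcdhb21 (r = 0.98), members of the protocadherin beta family, with r of 0.95 and 0.91 in differentiated cells. For Aspn they were Rnf122 and P2rx6 (both r = 0.94). For Dcn they were Afap1l2 and 2410066E13Rik (both r = 0.97). For Prelp the most alike gene of 10930 was Dcn (r = 0.95), with 0.83 over the growth and 0.85 over the differentiated libraries, and then Lphn3 (r = 0.95). For Bgn no gene exceeded r = 0.71, reached by Phf8 and Clu.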

How the data were processed

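mRNA-Seq of 20 C2C12 libraries was used. The values the authors deposited are FPKM from cuffdiff of Cufflinks 2.0.1 with default settings, after mapping to mm9 with TopHat 2.0.8, and each column was matched to its sample by title (columns named H3mmT were taken as H3t). FPKM holds no depth. No column of other samples was present. The deposited 3′-seq tables hold histone genes only and were not used, nor was ChIP-Seq.

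Values were taken as log2(FPKM + 1). limma 3.58.1 (R 4.3.3), with trend and robust settings, was run on genes with a mean of at least 1 FPKM over 18 GFP-H3 libraries, comparing 9 growth with 9 differentiated lines, and H3.3-type with H3.1/H3.2-type lines in a 4-group fit with an interaction, with Benjamini-Hochberg adjustment over all genes. The study computed its components without WT, so WT stayed outside the fits. The fit was tested on simulated data. The growth and differentiated libraries of a line pair: their deviations from group means correlated at 0.206 to 0.445 in the 9 lines. No pair of libraries had identical values.

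The members and lists were chosen with earlier results of these data known. Named were the members, the 2 genes of each list with the largest called difference in each direction that moved alike in 9 of 9 lines, and the 2 genes most alike each member by Pearson's r. Alternatives were 2 pseudocounts, 2 filters, 2 scalings, plain limma settings, each line left out, WT added and the line as replicate block. Positions come from GENCODE vM1 (NCBI37/mm9) and promoters from RefSeq (GRCm38.p6).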

Additional observations from a re-analysis of the deposited data

Results flagged for a closer look

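Each of the 8 genes was examined in growth and after differentiation, 16 groups of 9 lines, for a line far from the rest, measured as the gap to its nearest neighbour divided by the range (Dixon's ratio, on log2(FPKM + 1)). Chance flags about 1 in 20 such groups when values are normally distributed, and 4 were found. The 16 groups share lines, Mgp was picked on these libraries, and Lum lay below the filter on low values. The count therefore cannot be set against that rate, and the flags are descriptions and not tests. Mgp in growth was lowest in H3t, at 16.2 FPKM, with a ratio of 0.597. Mgp in differentiated cells was lowest in H3mm7, at 13.1 FPKM, with a ratio of 0.539. Aspn in growth was highest in H3mm7, at 3.73 FPKM, with a ratio of 0.622. Lum in differentiated cells was highest in H3.3, at 0.615 FPKM, with a ratio of 0.652.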

How the results depend on the processing

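Between growth and differentiation, 29 genes were recomputed, giving 516 values, of which 508 kept their direction and their side of the threshold and none turned. The exceptions were Tsku, which was called at -1.01 with WT added, at -1.12 and -1.10 with pseudocounts of 0.01 and 0.1 FPKM and without H3.3, H3mm7 or H3mm11, and Acta2, which lost its call without H3mm16 (0.99) and after quantile normalization (0.92). Genes called ranged from 682 to 1213 higher and from 746 to 1158 lower. Members called higher numbered 5 in each alternative except a mean of at least 5 FPKM, where Prelp was not tested and 4 were called. Leaving out a line in turn gave differences of 2.05 to 2.98 for Mgp, 3.76 to 4.57 for Ogn, 4.40 to 4.92 for Dcn, 1.88 to 2.57 for Aspn, 1.36 to 1.71 for Prelp and 0.67 to 0.90 for Bgn. With the line as replicate block, 964 genes were called higher and 940 lower, against 962 and 937 without it. The block changed no call of a member, and Bgn passed the adjusted p (0.0024) but not the size. Adjusted p over the alternatives ran up to 0.0091 for Mgp and 0.0061 for Aspn.

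The comparison by H3 type depended on the settings, and the cause was not tested. In growth, 18 genes were called higher and 5 lower in H3.3-type lines. Leaving out a line gave 0 to 20 and 2 to 5, no filter gave 0 higher, a mean of at least 5 FPKM gave 0 lower, and pseudocounts of 0.01 and 0.1 FPKM gave 71 and 50 higher and 1 lower each. After differentiation, 25 were called higher and 59 lower. Leaving out a line gave 1 (without H3.1) to 106 (without H3.2) higher and 2 to 187 lower, no filter gave 9 and 10, a mean of at least 5 FPKM gave 11 and 36, and a pseudocount of 0.1 FPKM gave 99 lower. The interaction gave 0 calls, 0 to 2 without a line, 1 at a mean of at least 5 FPKM and 5 after quantile normalization.

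Among members, Aspn had adjusted p = 0.011 to 0.19 over the alternatives, with 0.068 and 0.058 at pseudocounts of 0.01 and 0.1 FPKM. Dcn and Prelp in growth were called only at a pseudocount of 0.01 FPKM, with differences of 2.95 and 2.95. Bgn in growth (0.10) turned to -0.04, -0.26, -0.11 and -0.03 without H3.1, H3.3, H3mm11 and H3mm13 (range over lines left out -0.26 to 0.34). Dcn after differentiation (0.02) turned to -0.05, -0.22, -0.32, -0.06 and -7.5e-05 without H3.1, H3.3, H3mm13, H3mm16 and H3t, and to -0.038 after quantile normalization (range over lines left out -0.32 to 0.49). The missing depth limits what can be said of Lum and Fmod.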
